A study of Rattus norvegicus with 49 samples.

Results

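The 10 genes described here serve cells when the endoplasmic reticulum (ER) is stressed or amino acids run short, and they were followed in rat liver over 90 days of dosing with furan, which forms in food on heating. They are Hspa5, Ddit3, Atf3, Atf4, Herpud1, Xbp1, Trib3, Asns, Chac1 and Dnajb9. They were chosen by gene symbol, and a probe was taken for a gene when the RefSeq accession in the array annotation belonged to that symbol. They are 10 of 15154 gene symbols on the array, each had 1 of its 30367 probes, and all 10 probes were among the 17658 that were bright enough to test. The rats, males and females of the inbred strain F344, were 7 to 8 weeks old when dosing began. They received furan in corn oil by gavage on 5 days of each week at 4 doses in mg/kg (0.03, then 0.12 and 0.5, and 2 as the highest), and controls received corn oil alone. All rats were otherwise untreated, and livers were taken 24 hours after the last dose. Each of the 10 groups held 5 rats, apart from the males at 0.03 mg/kg with 4. RNA of each liver was labelled with Cy5 and hybridised with a universal rat reference RNA in Cy3, with no dye swaps, so that every value below is a log2 ratio of liver over reference. A value of 1 means 2 times the reference signal, and values of different genes are not comparable as levels, since each is set against its own amount in the reference.

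Secretory cells such as hepatocytes fold much of their protein in the ER. When unfolded protein builds up, the sensors IRE1, ATF6 and PERK start the unfolded protein response: XBP1 and ATF6 switch on chaperones and the degradation machinery of the ER, while PERK phosphorylates eIF2 alpha, which slows translation but favours that of ATF4. Lack of amino acids reaches ATF4 as well, through the kinase GCN2, so ATF4 targets such as Asns, Trib3, Chac1 and Ddit3 mark what is called the integrated stress response. Hspa5 encodes BiP, the main ER chaperone, Dnajb9 encodes its cochaperone ERdj4, and Herpud1 encodes a membrane protein that serves ER-associated degradation.

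Promoters are shown for the 5 genes whose level passed an adjusted p limit in at least 1 comparison with controls, so that the known response elements can be seen beside the values. The windows hold the 250 bases before the start of each gene, 5' to 3' on the gene's strand, from RefSeq on the GRCr8 build, and 9 of the 10 genes were matched there. Capitals mark the fixed letters of motifs that were searched on both strands, where a capital stretch may serve more than 1 motif: the ER stress element ERSE (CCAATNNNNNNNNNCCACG), the element ERSE-II (ATTGG and CCACG, 1 base apart), the core of the unfolded protein response element (GACGTG), the cyclic AMP response element (TGACGTCA) and a core of the amino acid response element that ATF4 binds with C/EBP factors (TGATGNAA). The windows lie at chr19:10614708-10614957 (Herpud1, minus strand), chr6:67002052-67002301 (Dnajb9, minus strand), chr3:38452766-38453015 (Hspa5, plus strand), chr4:36769416-36769665 (Asns, minus strand) and chr3:126795881-126796130 (Chac1, plus strand).
Herpud1: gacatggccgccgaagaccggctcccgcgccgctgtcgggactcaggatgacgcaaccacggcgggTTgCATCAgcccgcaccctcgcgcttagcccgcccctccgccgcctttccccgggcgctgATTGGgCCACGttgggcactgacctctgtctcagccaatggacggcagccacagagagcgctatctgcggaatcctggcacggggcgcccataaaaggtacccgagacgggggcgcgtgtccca
Dnajb9: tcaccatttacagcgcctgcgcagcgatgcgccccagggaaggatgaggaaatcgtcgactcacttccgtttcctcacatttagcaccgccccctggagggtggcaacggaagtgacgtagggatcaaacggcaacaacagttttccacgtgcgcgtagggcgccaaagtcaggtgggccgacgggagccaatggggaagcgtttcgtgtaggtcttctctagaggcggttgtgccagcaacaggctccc
Hspa5: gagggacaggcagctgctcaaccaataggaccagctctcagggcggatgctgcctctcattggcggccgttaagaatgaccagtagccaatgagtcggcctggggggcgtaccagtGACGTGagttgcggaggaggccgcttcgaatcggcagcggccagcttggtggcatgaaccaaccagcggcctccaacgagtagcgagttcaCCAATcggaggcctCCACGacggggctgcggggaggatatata
Asns: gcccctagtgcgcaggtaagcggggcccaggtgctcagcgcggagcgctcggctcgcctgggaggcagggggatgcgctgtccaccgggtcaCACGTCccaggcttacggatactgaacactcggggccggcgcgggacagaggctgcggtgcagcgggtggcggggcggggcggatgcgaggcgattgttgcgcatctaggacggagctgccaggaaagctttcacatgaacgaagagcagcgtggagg
Chac1: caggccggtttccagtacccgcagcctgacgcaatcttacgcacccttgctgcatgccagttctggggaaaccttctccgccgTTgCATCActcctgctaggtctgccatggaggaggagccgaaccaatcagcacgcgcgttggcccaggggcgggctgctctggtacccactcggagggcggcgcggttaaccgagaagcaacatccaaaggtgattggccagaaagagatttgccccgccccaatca
Herpud1 held an ERSE-II match that ended 114 bases before the start, and 0.0418% of 33465 rat promoter windows of the same length held that motif. It also held a TGATGNAA match on the other strand, found in 3.4% of windows. Hspa5 held the full ERSE, found in 0.0657% of windows, and a GACGTG core, found in 5.25%. Xbp1, not printed here, held the full ERSE as well. Chac1 and Trib3 held TGATGNAA, and Asns and Ddit3 held GACGTG. The Dnajb9 and Atf4 windows held none of these 5 motifs, which says only that these letters are not in these windows. No window of the 9 genes held TGACGTCA, found in 1.59% of windows.

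On the 48 arrays used, the share of spots well above background was 37.9% to 71.1% for liver and 67.7% to 84.3% for the reference. A further array, of a male at 0.03 mg/kg, was dim in both channels and was left out, so that this group kept 3 rats. RNA of 5 rats was labelled for each group, and the array of a male was left out by the study after quality checks. Whether the dim array is that one was not settled here. The arrays lay on 8 slides. Slides 5 and 6 were dimmer in the liver channel (37.9% to 46%, against 45.5% to 71.1% elsewhere) and held 10 treated arrays and 0 control arrays, and slide was kept as a block in the model. Leaving out these 10 arrays kept 3 of the 6 calls given below, and adding the dim array kept 0 of them, so both values are given with the results. Of the arrays used, 2 matched no column of the deposited normalised values of their own group, those of female 62 at 0.5 mg/kg and male 83 at 2 mg/kg. Without male 83 the changes at 2 mg/kg were 0.92 for Herpud1, 0.60 for Asns, -0.48 for Hspa5 and -0.43 for Chac1, with limma adjusted p values of 0.0376, 0.00815, 0.0168 and 0.00576, and without female 62 the number of calls in females remained 0. Rat numbers follow the labels of the scanner files. The probes of 9 of the genes were well above background on 48 of 48 arrays, and that of Atf3 on 47.

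Across doses, Herpud1, Dnajb9 and Asns were the genes called upward, and the calls were in males. Fitted Herpud1 changes in females were positive as well, and the difference between the sexes is tested below. A change was called when limma's adjusted p, over all 17658 probes, was at most 0.05 and the fold change at least 1.5. In males, 0 of the 10 genes were called at 0.03 mg/kg (0% of all probes were called), 2 at 0.12 mg/kg (0.306% of all probes), 2 at 0.5 mg/kg (0.362%) and 2 at 2 mg/kg (5.07%), all upward. In females, 0 of 10 were called at each dose, against 0.017% of all probes at 0.03 mg/kg, 0.0113% at 0.12 mg/kg, 0.0283% at 0.5 mg/kg and 1.4% at 2 mg/kg. An unadjusted limma p under 0.05 was reached by 15 of the 40 tests of a gene at a dose in males, where 14.2% of all probes over the 4 doses did. In females 6 of 40 tests reached it, near the 13.5% of all probes when the doses are pooled. By dose, from lowest to highest, 3, 2, 0 and 1 of 10 genes reached it in females. Of the 17658 probes, 1142, 1492, 2687 and 4234 did. By limma's F test over the 4 doses, 6 of the 10 genes passed in males (18.2% of all probes did), namely Hspa5, Herpud1, Xbp1, Asns, Chac1 and Dnajb9, and 0 of 10 in females (2.99% of all probes). In the sections below, changes are fitted log2 differences from controls of the same sex with slide as a block, and errors are standard errors (SE), while group values are means with standard deviation (SD).

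**Figure D1:**
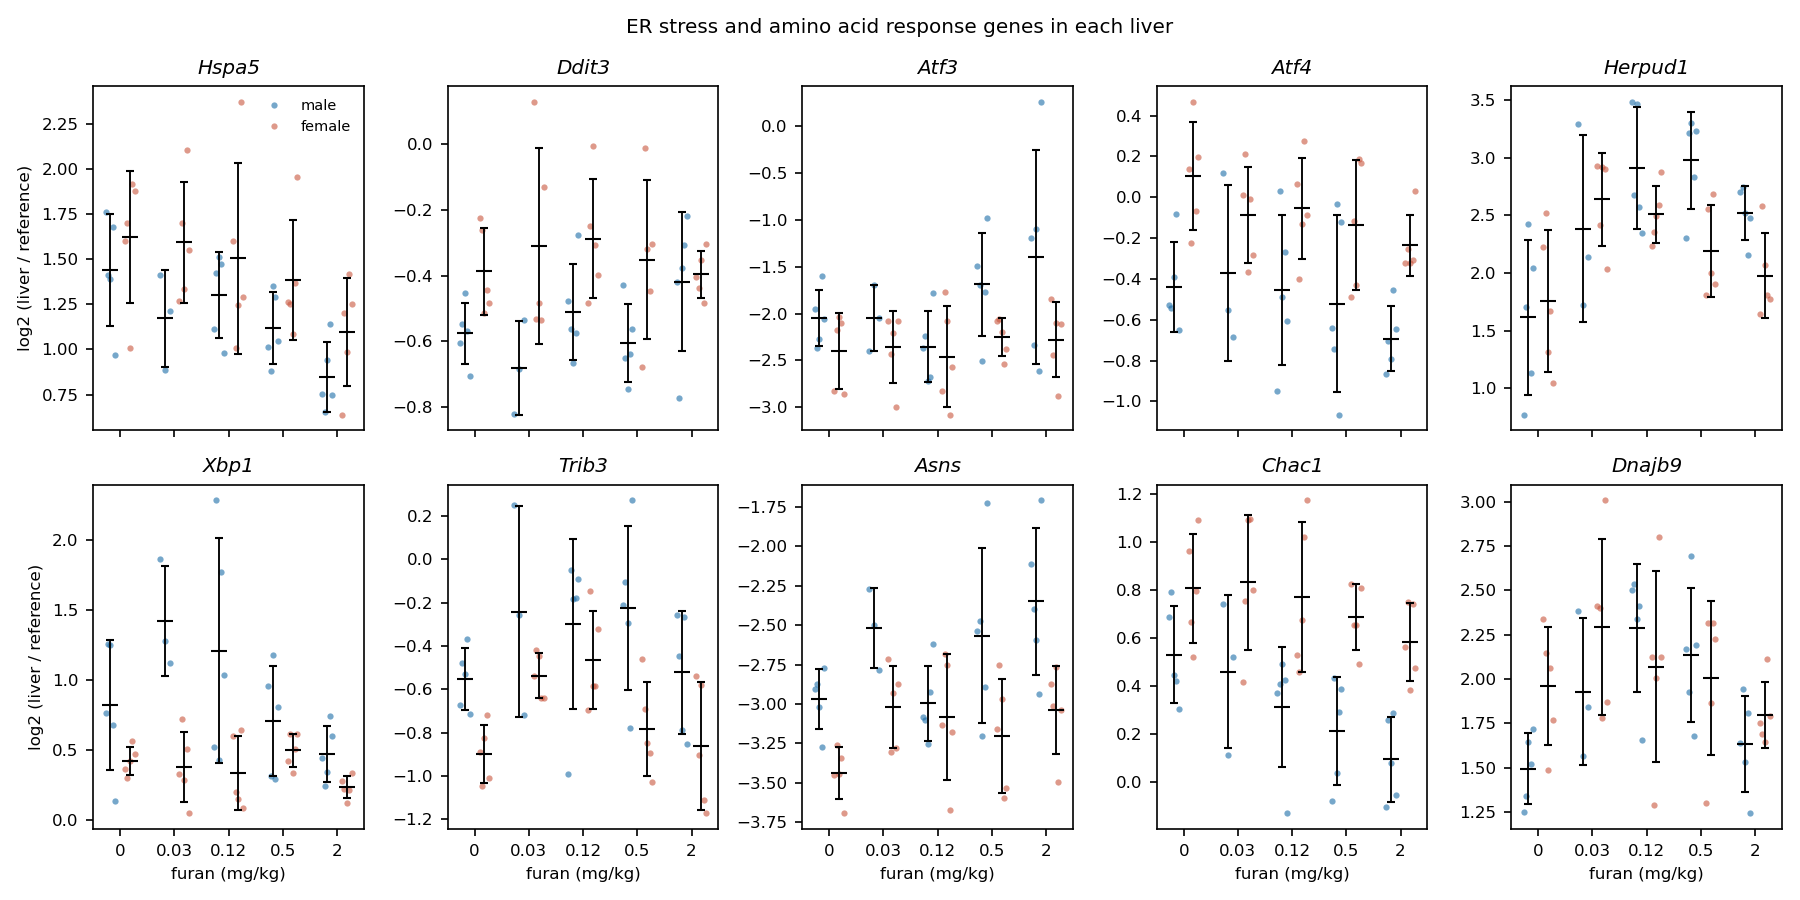
Log2 ratio of liver over reference for the 10 genes in each of 48 livers, by furan dose in mg/kg (x axis, evenly spaced). Blue points are males, red points females, and black bars give the group mean with its SD. Herpud1 in control males spreads from 0.77 to 2.43, while the 5 males at 0.12 mg/kg lie from 2.35 to 3.49. The scale of the y axis differs between genes.

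Herpud1 showed the largest fitted rise of the 10 genes. The fitted change was larger at the 2 middle doses than at 2 mg/kg, a difference that was not tested. Control males 2 to 6 measured 0.77, 1.71, 2.43, 1.13 and 2.04, a mean of 1.62 ± 0.67 (SD, n = 5). At 0.12 mg/kg, males 41, 42, 44, 48 and 52 measured 3.49, 2.68, 3.47, 2.58 and 2.35. All of these but the lowest lay above the highest control. At 0.5 mg/kg, males 62, 63, 65, 68 and 70 measured 2.30, 3.22, 3.31, 2.83 and 3.24. At 2 mg/kg, males 81, 83, 84, 86 and 87 measured 2.71, 2.74, 2.52, 2.16 and 2.47. The 2 mg/kg males were close together, and 1 of them, rat 86, fell within the control range, as did rat 62 at 0.5 mg/kg. The fitted change was 1.35 ± 0.30 (SE) at 0.12 mg/kg, 2.55-fold, with a limma adjusted p of 0.0249. At 0.5 mg/kg it was 1.41 ± 0.31, 2.66-fold (limma adjusted p = 0.0268), and at 2 mg/kg 0.93 ± 0.30, 1.91-fold (limma adjusted p = 0.0225). Control males spread more widely (SD 0.67) than any group of 5 treated males (0.23 to 0.53). The 3 males at 0.03 mg/kg measured 3.29, 1.72 and 2.14, which gave a change of 0.78 with a 95% confidence interval of 0.04 to 1.52 (limma adjusted p = 1).

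Slides that held a treated and a control male allowed a direct difference in Herpud1 between 2 arrays. At 0.12 mg/kg all 4 such slides gave a value above 0, from 0.25 to 2.70. Both slides at 0.5 mg/kg did as well, with 0.88 and 1.53, and so did all 3 at 2 mg/kg, from 0.43 to 1.39. The direction was therefore the same within slides, while the size was not. The calls were less stable than the direction. At 0.12 mg/kg the call ended without control rat 2 or 5, or without rat 41 or 44, with changes of 1.10 to 1.20. At 0.5 mg/kg it ended without control rat 2, 3 or 5, or without rat 63, 65 or 70 (1.24 to 1.41), and at 2 mg/kg without control rat 2 or 5 or rat 81 (0.72 to 0.84). Without slides 5 and 6 the change was 1.46, 1.42 and 0.85 at 0.12, 0.5 and 2 mg/kg (limma adjusted p = 0.0211, 0.101 and 0.0614). With the dim array included it was 1.35, 1.33 and 0.93 (limma adjusted p = 0.104, 0.146 and 0.082). With no slide block the call held at 2 mg/kg (0.90, limma adjusted p = 0.0477) and ended at 0.12 and 0.5 mg/kg (limma adjusted p = 0.0881 and 0.054). With the deposited normalised values it held at 0.5 mg/kg (1.34, limma adjusted p = 0.0471) and ended at 0.12 and 2 mg/kg (limma adjusted p = 0.0796 and 0.0681). With the liver channel alone, background corrected but not normalised between arrays, all 3 calls ended (limma adjusted p = 0.275, 0.135 and 0.0863).

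In females, the fitted Herpud1 change was above 0 at each dose, and it passed the test at 0 of the 4 doses. Control females 2, 4, 7, 9 and 11 measured 2.23, 2.52, 1.32, 1.67 and 1.05. The 5 females at 0.03 mg/kg measured 2.93, 2.42, 2.92, 2.90 and 2.03, a fitted change of 0.87 ± 0.30 (SE, limma adjusted p = 0.666). At 0.12 mg/kg they measured 2.23, 2.35, 2.49, 2.59 and 2.88, a change of 0.89 ± 0.31 (limma adjusted p = 0.424). The changes at 0.5 and 2 mg/kg were 0.53 and 0.28, with confidence intervals of -0.09 to 1.15 and -0.35 to 0.92. Within slides the difference was above 0 on 3 of 3 slides at 0.03 mg/kg and on 3 of 3 at 0.12 mg/kg. At 0.5 mg/kg it was above 0 on 2 of 3 slides (-0.71 to 1.37), and at 2 mg/kg on 2 of 2 (0.06 to 0.76). The fitted change was thus above 0 in 8 of 8 comparisons over both sexes, and the 4 within a sex share their controls.

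Dnajb9, the BiP cochaperone ERdj4, rose in males at the same 2 doses. Control males measured 1.25, 1.34, 1.65, 1.52 and 1.72, a mean of 1.5 ± 0.20 (SD, n = 5). Males at 0.12 mg/kg measured 2.50, 2.53, 2.34, 2.41 and 1.66, and all but rat 52 lay above every control. Males at 0.5 mg/kg measured 2.17, 1.93, 2.70, 1.68 and 2.19, where rat 68 lay within the control range. The change was 0.88 ± 0.20 (SE), 1.85-fold, at 0.12 mg/kg (limma adjusted p = 0.031) and 0.86 ± 0.21, 1.81-fold, at 0.5 mg/kg (limma adjusted p = 0.0478). Males at 2 mg/kg measured 1.64, 1.94, 1.53, 1.81 and 1.24, and 2 of the 5 lay above every control, with a change of 0.30 ± 0.21 (limma adjusted p = 0.32). Within slides the difference at 0.12 mg/kg was 0.78 to 1.09 on 4 slides, and at 0.5 mg/kg 0.85 and 1.05 on 2. Control females measured 2.34, 2.15, 1.49, 2.06 and 1.77, which overlapped with every treated group of females. Their change was 0.46 at 0.03 mg/kg and 0.02 to 0.27 at the other doses. The adjusted p of Dnajb9 lay near the limit. Its call at 0.12 mg/kg ended without control rat 2, 3, 4 or 5 or without rat 41, 42, 44 or 48, and that at 0.5 mg/kg without the same controls or without rat 62, 63, 65 or 70. Over all fits that left out 1 rat, the change was 0.79 to 1.01 at 0.12 mg/kg and 0.75 to 0.96 at 0.5 mg/kg. Without slides 5 and 6 it was 0.93 and 0.83 (limma adjusted p = 0.0329 and 0.168), and with the dim array 0.89 and 0.79 (limma adjusted p = 0.18 and 0.285). Both calls also ended with no slide block, with the deposited normalised values and with the liver channel alone, where the changes were 0.61 to 0.99 and the limma adjusted p values 0.223 to 0.583.

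**Figure D2:**
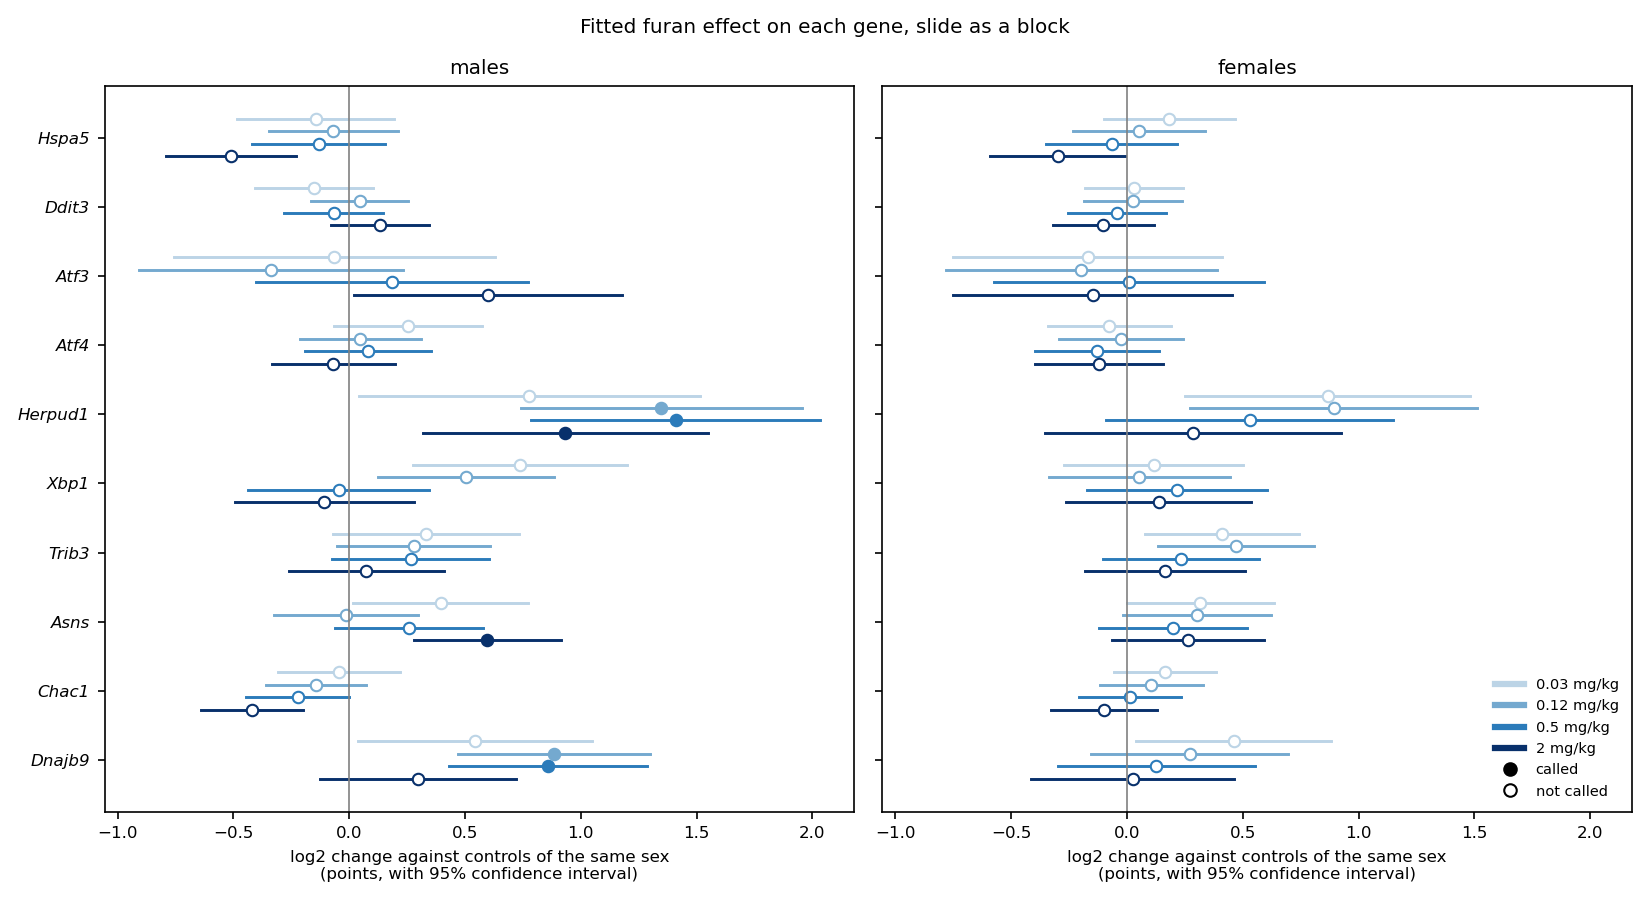
Fitted log2 change of each gene against controls of the same sex (x axis) in males (left) and females (right). Lines are 95% confidence intervals, darker blue is a higher dose, and filled points were called. The filled points are Herpud1 at 0.12, 0.5 and 2 mg/kg, Dnajb9 at 0.12 and 0.5 mg/kg and Asns at 2 mg/kg, all in males.

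Hspa5, the chaperone BiP itself, did not rise with Herpud1 and Dnajb9 across doses in males. Control males measured 1.76, 1.42, 1.39, 1.68 and 0.97, and males at 2 mg/kg 0.75, 0.65, 0.94, 1.14 and 0.75. Of these, 4 of the 5 treated values lay below every control, and rat 86 lay above the lowest control. The change was -0.51 ± 0.14 (SE), 1.42-fold lower, with a limma adjusted p of 0.00647, which passed the p limit but not the fold limit. With the adjusted p alone as the rule, 4 of the 10 genes passed in males at 2 mg/kg, 2 upward (Herpud1 and Asns) and 2 downward (Hspa5 and Chac1), where 23.3% of all probes passed. Hspa5 was lower on all 3 slides with a 2 mg/kg and a control male (-0.74 to -0.22). At 0.03 to 0.5 mg/kg its change in males was between -0.15 and -0.07. Control females measured 1.60, 1.70, 1.01, 1.92 and 1.88, and females at 2 mg/kg 0.64, 1.20, 0.99, 1.42 and 1.25, so that the groups overlapped. The change in these females was -0.30 ± 0.14 (limma adjusted p = 0.197). Hspa5 also passed the fold limit, at -0.68 to -0.67, with the scanner's own log ratio, with the study's deposited values and with no offset in the background correction.

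Xbp1, the transcription factor that IRE1 activates by splicing, varied more among males than among females before slide was removed. Splicing was not analysed here. Control males ranged from 0.14 to 1.26 around a median of 0.77, and males at 0.12 mg/kg from 0.43 to 2.28 around 1.04. Control females lay between 0.30 and 0.56. With slide removed, the SD was 0.23 in control males and 0.21 in control females. It was larger in males at 0.03, 0.12 and 2 mg/kg (0.24, 0.59 and 0.27 against 0.12, 0.21 and 0.13). At 0.5 mg/kg it was smaller in males (0.20 against 0.23). The F test over doses passed in males (limma adjusted p = 0.0057), while 0 of the 4 single doses did: the changes were 0.74 ± 0.23 (SE) at 0.03 mg/kg, 0.50 ± 0.19 at 0.12 mg/kg, -0.05 at 0.5 mg/kg and -0.11 at 2 mg/kg. In females all 4 changes lay between 0.05 and 0.22.

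Asns, asparagine synthetase, is a classical ATF4 target, and it rose in males at the top dose. Control males measured -2.90, -2.87, -3.02, -3.27 and -2.77, and males at 2 mg/kg -2.11, -2.40, -2.59, -2.93 and -1.71. Rat 87 was highest and rat 86 alone lay within the control range. The change was 0.60 ± 0.16 (SE), 1.51-fold, with a limma adjusted p of 0.00471. This sits at the fold limit, and the call ended without rat 87 (0.46) and without control rat 3, 5 or 6 (0.52 to 0.58). Without slides 5 and 6 the change was 0.61 (limma adjusted p = 0.0159), and with the dim array 0.60 (limma adjusted p = 0.0887). The call held with the liver channel alone (0.82, limma adjusted p = 0.0241) and ended with no slide block (0.62, limma adjusted p = 0.0615) and with the deposited normalised values (0.63, limma adjusted p = 0.173). On the 3 slides that held both groups the difference was -0.03, 0.68 and 1.06. At 0.5 mg/kg males ranged from -3.21 to -1.73, with a change of 0.26 ± 0.16, and at 0.12 mg/kg the change was -0.01. The 3 males at 0.03 mg/kg measured -2.27, -2.50 and -2.78, a change of 0.39 ± 0.19 (limma adjusted p = 1). In females the change was 0.20 to 0.32 at the 4 doses, and 0.26 at 2 mg/kg with a confidence interval of -0.06 to 0.59.

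Chac1, an enzyme that degrades glutathione and an ATF4 target too, went the other way. Control males measured 0.69, 0.79, 0.45, 0.42 and 0.30, and males at 2 mg/kg -0.10, 0.26, 0.08, 0.29 and -0.05, so that the groups did not overlap (4.26% of all probes did not overlap there). The change was -0.42 ± 0.11 (SE), 1.34-fold lower, with a limma adjusted p of 0.00424, again short of the fold limit. It was -0.40 to -0.34 on the 3 shared slides. The changes at the lower doses in males were -0.04, -0.14 and -0.22 in order of dose. In females the change at 2 mg/kg was -0.10, with a confidence interval of -0.33 to 0.13.

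The regulators of this branch passed no test against controls. Atf4, the transcription factor at its centre, is controlled mainly through translation, which arrays do not see, and its changes lay between -0.07 and 0.26 in males and between -0.13 and -0.03 in females. Ddit3, which encodes the death-promoting factor CHOP, differed by -0.15 to 0.13 in males and by -0.10 to 0.03 in females. Control males measured -0.61, -0.55, -0.45, -0.57 and -0.71 for Ddit3, and males at 2 mg/kg -0.42, -0.77, -0.38, -0.31 and -0.22, with 4 of the 5 above every control and 1 below. For Ddit3 at 2 mg/kg the confidence interval was -0.08 to 0.35 in males and -0.32 to 0.12 in females. Trib3, a pseudokinase that restrains ATF4 and CHOP signalling, differed from controls by 0.07 to 0.33 in males, where the lowest of the treated values was -0.99 and the highest 0.27. In females, Trib3 did not overlap with controls at 0.03 mg/kg (-0.64 to -0.42 against -1.05 to -0.72) or at 0.12 mg/kg (-0.69 to -0.15), although the limma adjusted p was 0.716 and 0.443 for changes of 0.41 and 0.47. Of all probes, 0.374% and 1.41% did not overlap in those comparisons.

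Atf3, a stress-induced repressor and activator of transcription, was uneven in males at 2 mg/kg. The 5 rats measured -1.19, -2.34, -1.10, -2.61 and 0.26, and the 5 controls lay between -2.37 and -1.60. Rats 81, 84 and 87 lay above every control, rat 83 lay within the control range, and rat 86 lay below it. The change was 0.60 ± 0.29 (SE, limma adjusted p = 0.129). The SD was 1.14 in this group and 0.30 in control males, and with slide removed it was 0.88 and 0.54. Rat 87 had the highest measured Atf3 and Asns, and rat 86 the lowest measured value of both, among the 5 males at 2 mg/kg. With group means and slides removed, rat 87 stayed highest for both. Rat 86 stayed lowest for Asns (-0.22), while rat 83 was lowest for Atf3 (-0.86, against -0.73 for rat 86).

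The difference of the furan effect between males and females was tested at each dose as an interaction, and 0 of 10 genes were called at any dose. Of all probes, 0% were called at 0.03, at 0.12 and at 0.5 mg/kg and 1.09% at 2 mg/kg. An unadjusted limma p under 0.05 was reached in 5 of 40 tests, and in 9.35% of the tests of all probes. For Dnajb9 the male effect exceeded the female effect by 0.61 (95% confidence interval 0.03 to 1.19) at 0.12 mg/kg and by 0.73 (0.14 to 1.32) at 0.5 mg/kg. For Herpud1 the difference was 0.46 (-0.39 to 1.30) and 0.88 (0.01 to 1.75) at these doses, and for Asns at 2 mg/kg 0.33 (-0.11 to 0.77). The calls in males and their lack in females are thus not shown to be a difference between the sexes.

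Between control males and control females, 0 of 10 genes were called (6.42% of all probes were), and 2 passed the adjusted p alone (21.7% of all probes). Atf4 was lower in males, with values of -0.53, -0.54, -0.39, -0.08 and -0.65 against 0.14, -0.22, 0.47, -0.07 and 0.20 in females. The difference was -0.57 ± 0.13 (SE, limma adjusted p = 0.00118), 1.49-fold. Asns was higher in control males by 0.42 ± 0.15 (limma adjusted p = 0.0436), where the liver channel alone, not normalised between arrays, gave -0.10. The values of Trib3 did not overlap between the sexes (6.3% of all probes did not), and its difference was 0.37 ± 0.16 (limma adjusted p = 0.0922). Between the same groups 6 of the 41 tested marker genes of other cells and hepatocytes were called. Among them were the macrophage gene Adgre1 (-0.96), the erythroid gene Slc4a1 (-1.38) and the pancreatic acinar gene Cpa1 (-5.90). The medians of their lists were -0.42, 0.13 and -0.10, so that Slc4a1 and Cpa1 do not stand for their lists. Of 8 hepatocyte genes 1 was called, upward, and 1 stellate cell and 1 neutrophil gene were called downward. The part of these markers in the differences above was not tested.

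Other genes were read from 8 lists with 125 genes, 109 of which were tested, including the 10 described above. The lists of immediate early genes, cytosolic heat shock and clock genes lie outside ER stress and the amino acid response. Of the 99 others, 15 (15.2%) passed both limits in males at the top dose, 5 (5.05%) at 0.5 mg/kg, 0 at 0.12 mg/kg and, in females, 2 (2.02%) at 2 mg/kg. Clock genes were 3 of the 5 at 0.5 mg/kg, and an immediate early gene was 1. Among the 15 at the top dose, clock genes gave 1 rise and 4 falls, immediate early genes 1 fall and heat shock genes 2 rises. The lists are known gene groups that were drawn up with results of these data in view, so these shares are descriptions beside the shares of all probes given above. Among ER folding genes and chaperones, 1 of 19 fell and 0 rose in males at 2 mg/kg: Fkbp2, an ER prolyl isomerase, changed by -0.62. The median of this list was -0.24, against -0.02 over all probes, and 4 of the 19 genes were above 0. Among genes of ER-associated degradation, Herpud1 rose, and Sel1l (-0.67) and Derl3 (-0.66), which belong to the membrane complex for retrotranslocation, fell, out of 11 tested, with a list median of -0.16. Of 12 sensors and regulators of eIF2 alpha, 0 passed in males at the top dose and 1 fell in females, Ppp1r15a (-0.71), which encodes the eIF2 alpha phosphatase subunit GADD34.

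In the list of the ATF4 branch, 5 of 28 genes rose and 0 fell in males at 2 mg/kg, while the list median was -0.06 and its mean 0.12. Besides Asns these were Phgdh (1.90 ± 0.23, SE) and Psat1 (0.71 ± 0.14), which make serine, Fgf21 (1.5 ± 0.45), a hormone of fasting, and Eif4ebp1 (0.80 ± 0.16), which restrains translation. Fgf21 also rose in males at 0.5 mg/kg (1.85 ± 0.46, limma adjusted p = 0.0495). In females at 2 mg/kg the called gene of this list was Gdf15, a stress-induced cytokine, which fell by 1.02 on the log2 scale. Of 11 aminoacyl-tRNA synthetases tested, 0 were called in any comparison with controls. Hspb1 (1.04) and Hspd1 (0.59), heat shock proteins of the cytosol and mitochondria, rose in males at 2 mg/kg among 7 tested, and 0 of the 7 were called in females.

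**Figure D3:**
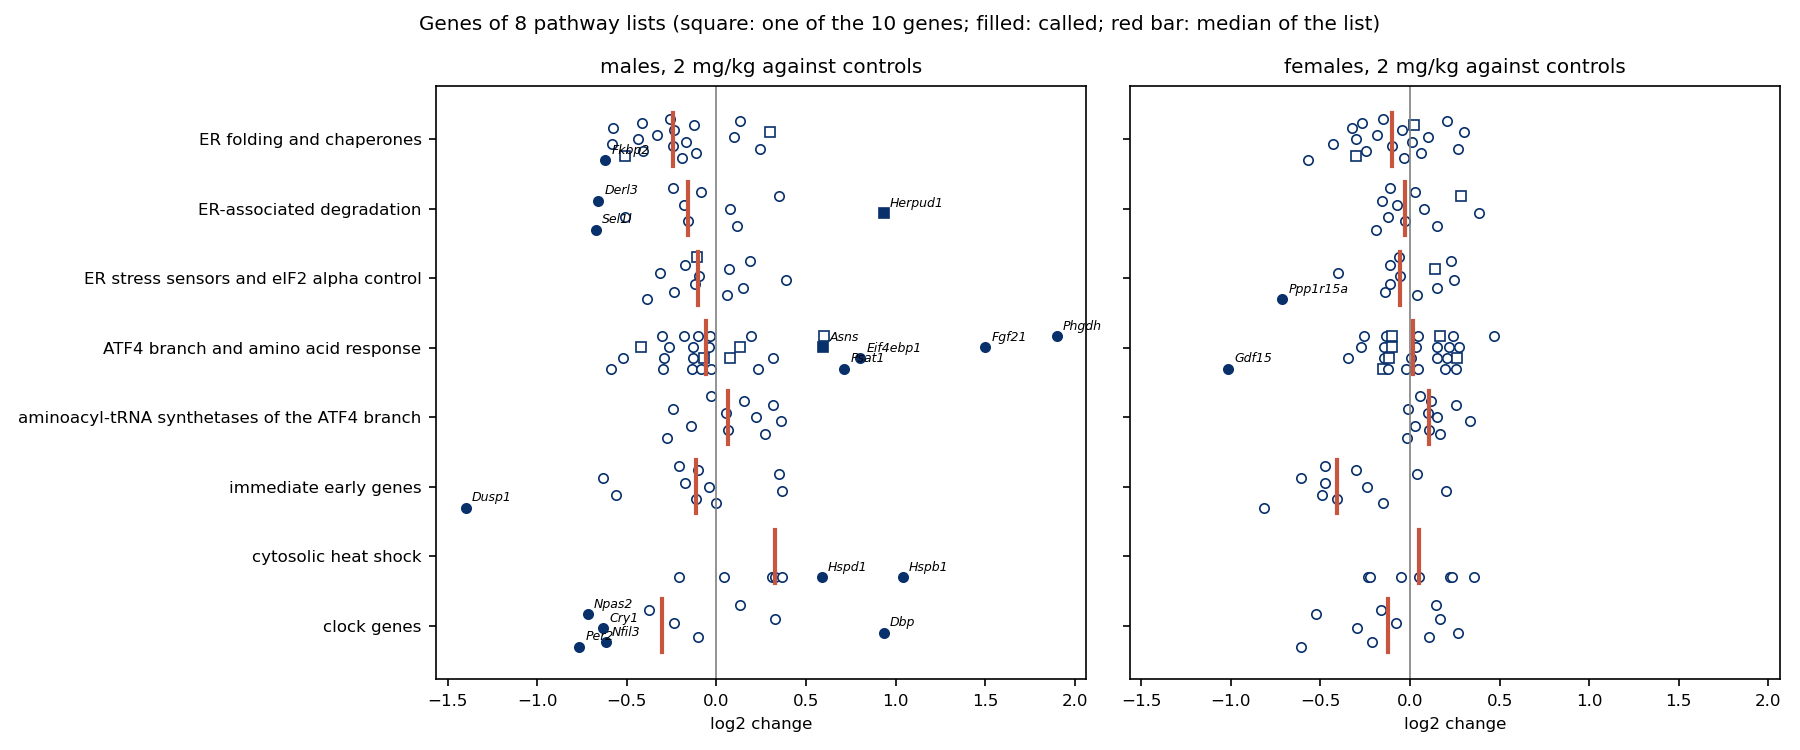
Log2 change at 2 mg/kg against controls (x axis) of each tested gene in 8 lists, in males (left) and females (right). Squares are the 10 genes listed at the start, filled symbols were called and are named, and red bars are list medians. In males the chaperone list has a median of -0.24 and the ATF4 list -0.06 with 5 called rises. In females, Ppp1r15a and Gdf15 are the filled symbols.

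Other measures moved in the same males. Of 10 clock genes tested, 0 were called at 0.12 mg/kg. At 0.5 mg/kg 3 fell, Per2 (-1.09), Cry1 (-0.88) and Nfil3 (-0.59). At 2 mg/kg Dbp rose (0.93) and 4 fell, Per2 (-0.76), Npas2 (-0.72), Cry1 (-0.63) and Nfil3 (-0.62). Dusp1 was called at 0.5 and 2 mg/kg (-1.37 and -1.40), 1 of 11 immediate early genes tested. Among markers of other cells, 4 of 5 bile duct genes rose in males at 2 mg/kg, where 5.07% of all probes were called. The mean log2 ratio of the bile duct genes ranged from -1.90 to -1.41 in control males and from -1.5 to -0.10 at 2 mg/kg. Of 7 stellate cell genes 2 rose, of 4 erythroid genes 2 fell, and of 8 hepatocyte genes 1 (Tat) fell. The hepatocyte mean ranged from 5.51 to 7.47 in control males and from 5.26 to 6.83 at 2 mg/kg, so that hepatocyte genes stood far above the reference in both groups. In bulk tissue, fewer cells of a type and less RNA per cell cannot be told apart, and the part of these shifts in the results on the 10 genes was not tested. At 0.12 mg/kg, where Herpud1 and Dnajb9 rose, 0 markers of these 8 cell lists were called, beside 0.306% of all probes. At that share hardly any call is to be had in lists of this size, so the 0 says little about cell types.

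Among rats of the same group, the 10 genes were compared by the residuals that remained after group means and slides were removed, over 48 livers and all 45 pairs. The test was a 2-sided permutation test with 100000 resamples, and p was adjusted over the pairs. Pearson's r and Spearman's rho both passed an adjusted p of 0.05 in 3 pairs, and Pearson's r in 8 pairs, these 3 included. Herpud1 and Dnajb9 went together, with r = 0.61 and rho = 0.66 (each p = 1e-05, the smallest the permutations can give, adjusted 0.00045). Within sexes r was 0.53 in males and 0.72 in females, and without the 2 livers farthest from the median of Herpud1 it was 0.67. Atf3 and Dnajb9 went in opposite directions, with r = -0.58 and rho = -0.59 (adjusted permutation p = 0.00045 for each), r = -0.69 in males and -0.53 in females, and -0.51 without the 2 farthest livers. Hspa5 and Trib3 were the third pair (r = -0.43, rho = -0.50, adjusted permutation p = 0.0192 and 0.0051), with -0.35 in males, -0.53 in females and -0.46 without the 2 farthest. The pairs that passed by Pearson's r alone were Atf3 and Asns (r = 0.50), Atf4 and Trib3 (0.48) and Hspa5 and Dnajb9 (0.45). Trib3 and Asns (0.40) and Atf4 and Xbp1 (0.39) did so too. For rho their adjusted permutation p was 0.0577 to 0.0709. Residuals from 1 model are not fully independent, as 31 degrees of freedom remained for 48 livers. The share of liver spots well above background, treated in the same way, also varied with some of these genes. Its r was 0.33 with Atf3 and -0.32 with Dnajb9, 0.24 with Hspa5 and -0.42 with Trib3, and -0.08 with Herpud1. The part of array brightness in the 3 pairs was not tested.

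**Figure D4:**
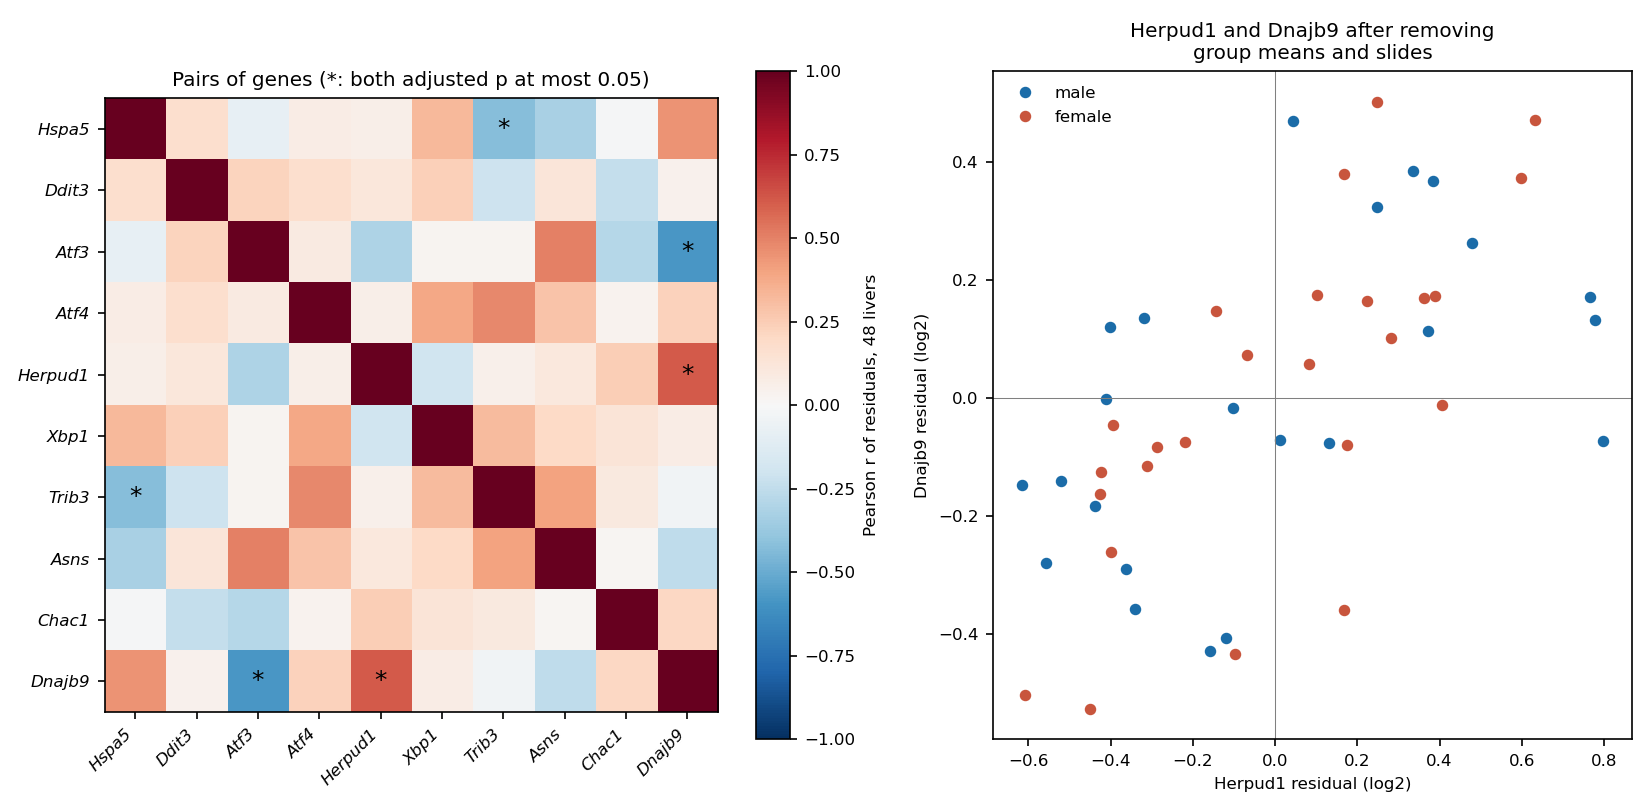
Left, Pearson r between residuals of each pair of genes over 48 livers, from -1 (blue) to 1 (red), with a star where both adjusted permutation p values were at most 0.05. Right, residuals of Herpud1 (x axis) and Dnajb9 (y axis) in log2 units, males in blue and females in red, with r = 0.61.

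By the same residuals each gene was set against 9840 other genes, as a description with no test, and the 3 with the highest r were noted. For Asns they were Psat1 (0.79), Mthfd2 (0.76), a mitochondrial folate enzyme, and Mars1 (0.75), a methionyl-tRNA synthetase. For Hspa5 they included Dnajb11 (0.75) and Hsp90b1 (0.73), both ER chaperones. For Dnajb9 they were Eif2ak3 (0.77), which encodes PERK, Zfp46 (0.71) and Pdia5 (0.71). For Herpud1 they were Cdc42ep4 (0.83), Zfp354a (0.79) and Mfsd2a (0.78), and for Trib3 Adm2 (0.72), Csnk2a2 (0.70) and Zmynd19 (0.70). Atf3 was most like Tes (0.87), Plxdc2 (0.85) and S100a10 (0.83). Xbp1 was most like Hs6st1 (0.83), Vps37b (0.72) and Klhl24 (0.71), and Atf4 like Gatad2b (0.74), Rgs18 (0.73) and Lrrc8a (0.71). Chac1 was most like R3hdml (0.74), Fzd1 (0.70) and Camp (0.68), and Ddit3 like Chic2 (0.62), Mef2d (0.59) and Gstm3 (0.59). The residuals share arrays, slides and normalisation, which can raise r between any 2 genes.

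Across processing choices the direction of the called changes held while the calls did not. The 6 called changes in males were recomputed 156 times in all, by leaving out rats of the compared groups and by other settings, and 156 of 156 values were above 0, while 77 were called. The 6 were picked as called rises in these same arrays. Settings that altered only the test or the filter left the fitted value unchanged. The 156 values are therefore no independent test of direction.

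**Figure D5:**
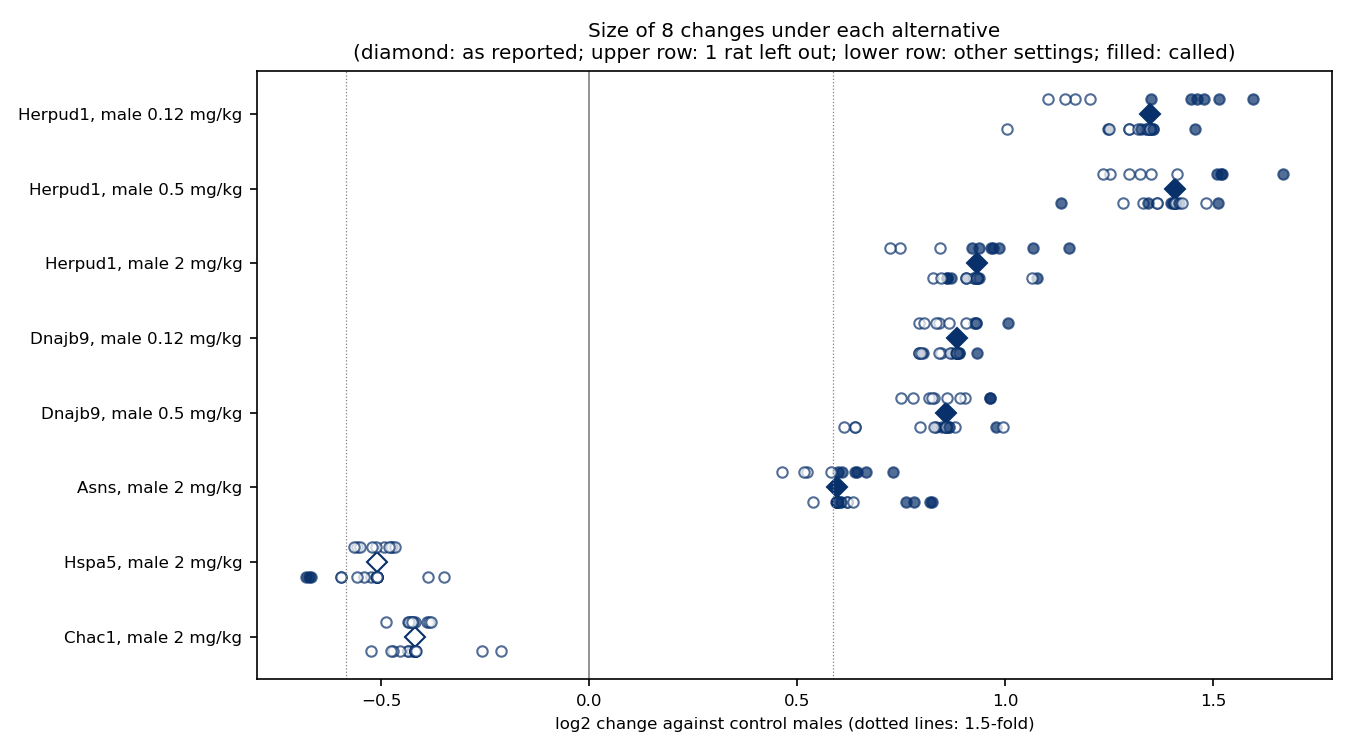
Log2 change against control males (x axis) for the 6 called changes and for Hspa5 and Chac1 at 2 mg/kg, as reported (diamonds), with 1 rat left out (upper points) and under other settings (lower points). Filled symbols were called, and dotted lines mark a 1.5-fold change. All values of a gene lie on the same side of 0.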

How the data were processed

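RNA of 49 livers was measured on 2-colour rat arrays, with groups and rat numbers taken from the labels. The deposited scanner files hold median pixel intensities for the spots and their surroundings, a log10 ratio that the scanner software computed, and 0 or 1 spot marks as other values, made with Agilent Feature Extraction 10.7.3.1 and annotated on the rn4 build, per the file headers. Log2 ratios that the authors normalised make up the deposited series matrix. Its columns matched arrays of the same group but often another rat (39 of 46 matched arrays), and 3 arrays matched none of their group, so it was used by group only, and 0 columns of per-sample values were left out.

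Intensities were corrected by normexp with an offset of 50 and normalised by loess within arrays in limma 3.58.1 under R 4.3.3, and spots of a probe were averaged after marked spots were left out. Files were read with the R package data.table (version 1.17.8). A probe was tested when 4 or more arrays of any group showed it well above background. The linear model had 1 mean per group and slide as a block over 48 arrays, with Benjamini-Hochberg adjustment within a comparison, and all tests were 2-sided. Steps were tested on simulated data. Symbols and promoters came from RefSeq on GRCr8, used for names and promoter windows only.

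All 10 genes were named, as were up to 5 called genes of each list by size of change, and the 3 genes most like each, of which 1 is not reported here. The 10 genes, the lists, the block and the omission of the dim array were chosen with earlier results of these data known. Of the macrophage, neutrophil, plasma cell and pancreatic acinar cell markers, 0 genes were called in males at 2 mg/kg. Alternatives covered the slide block, all 49 arrays, array weights, scaling, background correction, filter, probe averaging and each rat left out. The liver channel alone, also run, was background corrected and not normalised between arrays, so that its values carry array brightness. The number of arrays limits the precision.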

Additional observations from a re-analysis of the deposited data

Results flagged for a closer look

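Over the 10 genes, 90 groups of 5 rats were screened for a rat that stood apart from the rest of its group by Dixon's gap test, of which chance marks about 5%, and 4 were marked. Male 52 at 0.12 mg/kg was marked for Dnajb9 (1.66, where the other 4 rats lay from 2.34 to 2.53) and for Chac1 (-0.13, where the others lay from 0.37 to 0.49). Male 41 at 0.12 mg/kg was marked for Trib3 (-0.99, others from -0.18 to -0.05), and female 92 at 2 mg/kg for Atf4 (0.029, others from -0.32 to -0.25). The screen used values from which slide was not removed, and male 52 was the 0.12 mg/kg male on slide 5, which was dimmer in the liver channel. With group means and slides removed, its residual was -0.18 for Dnajb9 and -0.28 for Chac1. That of male 41 was -0.48 for Trib3, and that of female 92 was 0.26 for Atf4. The cause was not tested.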

How the results depend on the processing

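Of 10 genes at 4 doses in males, 6 changes were called, and the number was 1 with no slide block, 0 with all 49 arrays, 0 with all 49 arrays and no slide block, 1 with the liver channel alone, 2 with the study's deposited values, 0 when the test itself asked for a 1.5-fold change and, added after seeing the data, 3 without slides 5 and 6. Leaving out 1 rat gave 0 to 7, with 0 without control rat 5 and 1 without control rat 2. It was 6 with the replicate block, in which rat numbers shared by males and females only name different rats and pair nothing, and that block changed no call count. Calls were upward in 6 of 6, in 3 of 4 with the scanner log ratio, 4 of 5 with no offset and 1 of 2 with the deposited values, where Hspa5 at 2 mg/kg was called downward. The genes with an effect at any dose were 6 in males, but 1 with no slide block, 1 with all 49 arrays and no slide block, 2 with the liver channel alone, 2 with the deposited values and 3 to 6 with 1 rat left out (3 without male 87). In females they were 0, but 2 with array weights, 1 with the scanner log ratio and 1 with no offset, and 0 to 0 with 1 rat left out. Calls in females at single doses and interactions were 0 under every alternative run. Between control sexes 0 genes were called, but 1 with array weights, 2 with median centring, 4 with the liver channel alone, 1 with the scanner log ratio and 0 to 1 with 1 rat left out, and Asns reversed to -0.10 with the liver channel alone. List genes called over all doses were 28, but 17 with no slide block and 17 with median centring. Correlated pairs were 3, but 10 with all 49 arrays. The causes were not tested.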
